A study of Mus musculus with 8 samples.

Results

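The genes described here form the signalling front end of the Wnt pathway: the 19 Wnt ligands, 10 Frizzled receptors, 4 co-receptors, 4 R-spondins, 3 R-spondin receptors, 2 membrane ubiquitin ligases and 4 intracellular or target genes. They were taken by name, 46 of the 55358 gene names in the data, by a rule that uses no measured value. RNA was sequenced from mouse embryonic fibroblasts, a culture of connective-tissue cells made from embryos. The 4 groups were wild type cells (WT) without interleukin 6 (IL-6), WT with 100 ng/ml IL-6, cells labelled Arid5a-/- (KO) without IL-6, and KO with 100 ng/ml IL-6, all kept for 24 hours and all with 2 libraries. Arid5a binds RNA and is known to protect certain inflammatory messages from decay. The labels give no strain, embryo or sex for the cells. They also do not state whether both libraries of a group are separate cultures, and a p-value here reflects only how far these libraries spread, which may be technical.

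Wnt ligands are secreted, lipid-modified proteins that bind a Frizzled receptor. With the co-receptors Lrp5 or Lrp6, this stops the destruction of β-catenin (Ctnnb1), which then acts with the DNA-binding factors Tcf7 and Lef1 on target genes such as Axin2. With the co-receptors Ror1 and Ror2, ligands such as Wnt5a act without β-catenin on cell polarity and movement. R-spondins, through Lgr receptors, remove the ubiquitin ligases Rnf43 and Znrf3 that otherwise clear Frizzled from the cell surface.

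Sequence upstream of the annotated start was taken from RefSeq (GRCm38.p6) and was found for 32 of the 46 genes, with 41 start sites; no window is given for Fzd2, Fzd3, Fzd6, Fzd8, Lgr5, Lrp5, Lrp6, Rspo2, Rspo3, Wnt10a, Wnt5a, Wnt7b, Wnt8a and Znrf3. The 250 bases before the start are shown for the ligand that led in WT (Wnt10b), the R-spondin that led in KO (Rspo1), the ligand with the largest rise with IL-6 (Wnt16), the target gene Axin2, and 2 ligands that held a searched word (Wnt11, with both its starts, and Wnt5b). Each is written 5′ to 3′ on the gene's strand, and capitals mark the word found.
Wnt10b, chr15:98778151-98778400, minus strand: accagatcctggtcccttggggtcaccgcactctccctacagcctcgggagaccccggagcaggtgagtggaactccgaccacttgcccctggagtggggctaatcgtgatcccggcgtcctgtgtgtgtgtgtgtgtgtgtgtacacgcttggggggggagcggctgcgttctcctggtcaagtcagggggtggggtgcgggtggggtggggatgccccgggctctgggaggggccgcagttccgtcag
Rspo1, chr4:124986180-124986429, plus strand: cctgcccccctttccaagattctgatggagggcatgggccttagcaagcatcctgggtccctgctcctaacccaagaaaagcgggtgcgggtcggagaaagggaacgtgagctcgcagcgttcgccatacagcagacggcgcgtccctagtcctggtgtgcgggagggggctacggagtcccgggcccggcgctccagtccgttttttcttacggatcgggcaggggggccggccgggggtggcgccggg
Wnt16, chr6:22287977-22288226, plus strand: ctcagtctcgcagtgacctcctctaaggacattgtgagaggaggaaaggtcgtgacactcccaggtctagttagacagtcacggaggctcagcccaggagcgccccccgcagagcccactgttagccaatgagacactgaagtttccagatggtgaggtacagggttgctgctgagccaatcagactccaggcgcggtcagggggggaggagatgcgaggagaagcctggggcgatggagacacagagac
Axin2, chr11:108920099-108920348, plus strand: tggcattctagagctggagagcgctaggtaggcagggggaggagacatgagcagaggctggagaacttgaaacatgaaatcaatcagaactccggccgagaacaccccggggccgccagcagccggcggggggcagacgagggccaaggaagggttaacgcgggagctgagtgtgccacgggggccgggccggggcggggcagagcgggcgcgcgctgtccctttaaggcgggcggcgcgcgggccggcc
Wnt11, first start, chr7:98834862-98835111, plus strand: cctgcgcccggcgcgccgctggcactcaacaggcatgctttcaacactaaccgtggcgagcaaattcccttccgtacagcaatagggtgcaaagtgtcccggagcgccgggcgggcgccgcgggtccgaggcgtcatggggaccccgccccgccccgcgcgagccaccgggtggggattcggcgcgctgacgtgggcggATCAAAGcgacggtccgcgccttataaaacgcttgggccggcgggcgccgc
Wnt11, later start, chr7:98838595-98838844, plus strand: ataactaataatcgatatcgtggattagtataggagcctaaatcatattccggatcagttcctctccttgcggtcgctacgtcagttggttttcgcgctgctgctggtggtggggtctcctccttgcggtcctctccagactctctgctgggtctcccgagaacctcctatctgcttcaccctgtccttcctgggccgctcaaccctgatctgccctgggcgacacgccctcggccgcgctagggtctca
Wnt5b, chr6:119467212-119467461, minus strand: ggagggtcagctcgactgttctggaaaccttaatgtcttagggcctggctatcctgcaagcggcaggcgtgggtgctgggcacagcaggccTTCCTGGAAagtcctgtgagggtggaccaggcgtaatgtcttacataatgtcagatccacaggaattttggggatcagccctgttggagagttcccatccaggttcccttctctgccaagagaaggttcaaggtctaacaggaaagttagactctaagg
Both strands were searched for the TCF/LEF words CTTTGAT and CTTTGAA and for the STAT word TTCNNNGAA, the last because IL-6 signals through STAT factors. CTTTGAT was in 2 of the 41 windows and in 3.2% of 32851 mouse promoters of the same length. One was the first start of Wnt11, 51 bases before it and on the minus strand, so that it reads as its reverse complement above. The other was an inner start of Wnt5b, 71 bases before it, which is not shown. CTTTGAA was in none of the 41 windows and in 4.5% of all promoters. The STAT word was in 1 window, that of the Wnt5b start shown, 159 bases before it, and in 7.0% of all promoters. Axin2, Wnt16, Rspo1 and Wnt10b held none of these letters in the window shown. The windows of the later Wnt11 start and of Wnt5b lie inside introns of those genes, and that of Rspo1 inside an intron of the antisense gene Gm12930. A match is a run of letters, not a binding site.

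Values are FPKM (fragments counted per transcript, scaled by its length and by the library's depth), summed over the transcripts of a gene. The spacing of the lowest values gave a depth of 36.4 to 47.6 M fragments per library, and 12570 to 12699 genes per library reached 1 FPKM. Arid5a stood at 18.73 and 15.89 FPKM in WT without IL-6 and 30.86 and 30.99 with it. KO had 5.51 and 6.853 without and 8.474 and 8.146 with IL-6, lower than WT but not at 0. The 8 fibroblast markers summed to 3160 to 3840 FPKM over the 4 WT libraries and 4380 to 4590 over the 4 KO libraries, but they did not move together. Col1a1, Dcn and Fn1 were higher in KO, whereas Vim (1746 to 2288 FPKM in WT and 1021 to 1088 in KO), Pdgfra (33.1 to 52.4 and 7.62 to 8.85) and Pdgfrb (48.1 to 50.3 and 6.97 to 7.404) were lower, and Thy1 was under 1 FPKM in KO. The 4 KO libraries all differed from WT in further ways. The 5 mesothelial markers (Wt1, Msln, Upk3b, Krt19 and Lrrn4; mesothelium is the lining of body cavities) summed to 38.3 to 52.7 FPKM in WT and 1250 to 1320 in KO, and Wt1 and Lrrn4 were listed at 0 in the 4 WT libraries. Xist, the RNA of the inactive X chromosome, was at 55.2 to 61.0 FPKM in KO and near 0 in WT, whereas the 4 Y-linked genes measured were expressed in WT and at or near 0 in KO. Epithelial markers summed to 1.15 to 1.70 FPKM in WT and 82.3 to 87.2 in KO, mostly Krt14, with Krt5 and Cldn4 at or near 0 in all 8 libraries. Endothelial markers summed to at most 0.181 FPKM in WT and 10.8 to 12 in KO, with Cdh5 and Emcn near 0 throughout. Macrophage and leukocyte markers summed to 18.8 and 19.1 FPKM in WT without and 34.8 and 35.7 with IL-6, and 3.66 to 5.09 in KO, mostly Cd14, while Ptprc and Adgre1 were at or near 0. Their part in the IL-6 changes of WT was not tested. Smooth muscle, neural, and cartilage and bone markers summed to at most 11.2, 22.7 and 3.08 FPKM. In every difference between KO and WT below, the Arid5a label, the sex of the cells and these marker levels cannot be told apart. In bulk RNA, fewer cells of a type and less RNA per cell cannot be told apart either.

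Of the 46 genes, 31 reached 1 FPKM in 2 or more of the 8 libraries. They were tested with limma on log2(FPKM + 1) together with all other such genes, 13693 in all. Adjusted p-values are Benjamini-Hochberg values over those genes, a gene is said to have risen or fallen at an adjusted p below 0.05, and differences are log2 ± SE, a scale that understates the fold of low genes. Of the 31, 9 reached 1 FPKM in 1 genotype only: Fzd3, Fzd4, Ror1, Lef1, Wnt2b and Wnt4 in KO, and Rspo2, Wnt10a and Rnf43 in WT. They passed the filter through the group in which they are high, so the counts that follow describe the 31 and are not evidence on the 46.

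With IL-6 in WT, 14 of the 31 tested genes changed, 4 upwards and 10 downwards. Over all tested genes 15.7% changed, 8.3% upwards and 7.41% downwards. The median difference was -0.09 for the 31 genes and 0.00 for all tested genes. Wnt16, Rspo3, Fzd7 and Ror2 rose, and Fzd1, Fzd2, Fzd6, Wnt2b, Wnt9a, Wnt10a, Wnt10b, Wnt11, Ror1 and Axin2 fell. Without WT library 1 or WT with IL-6 library 1 the count of 14 was lower, as was the count over all tested genes. With IL-6 in KO, limma called 0 of the 31 genes, against 0.0219% of all tested genes (3 genes). At an unadjusted p below 0.05 there were 4 of the 31, namely Lef1, Wnt16, Wnt4 and Wnt9a. The share of all tested genes below that unadjusted threshold is not given here, so this count has no background to be set against.

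Between the genotypes without IL-6, 25 of the 31 differed, 13 higher in KO and 12 lower. The background was 71.0% of all tested genes, 36.4% higher and 34.5% lower, so a difference in this comparison was the common case. With IL-6, 24 of the 31 differed, 12 in each direction, beside 71.7% of all tested genes (36.9% higher and 34.8% lower). The median differences were 0.04 and 0.14, beside 0.01 and 0.01 for all tested genes. The IL-6 change itself differed between the genotypes for 7 of the 31 genes, beside 6.06% of all tested genes, with 4 differences upwards (2.54% of all) and 3 downwards (3.52% of all). On leaving out any 1 of the 8 libraries this count of 7 was lower, as was the count over all tested genes. With every library scaled to the same total FPKM this split was 6 upwards and 2 downwards. These comparisons share libraries (the IL-6 change in WT and the untreated genotype difference both use the untreated WT pair), so their values are given side by side and no likeness between them is tested.

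**Figure D1:**
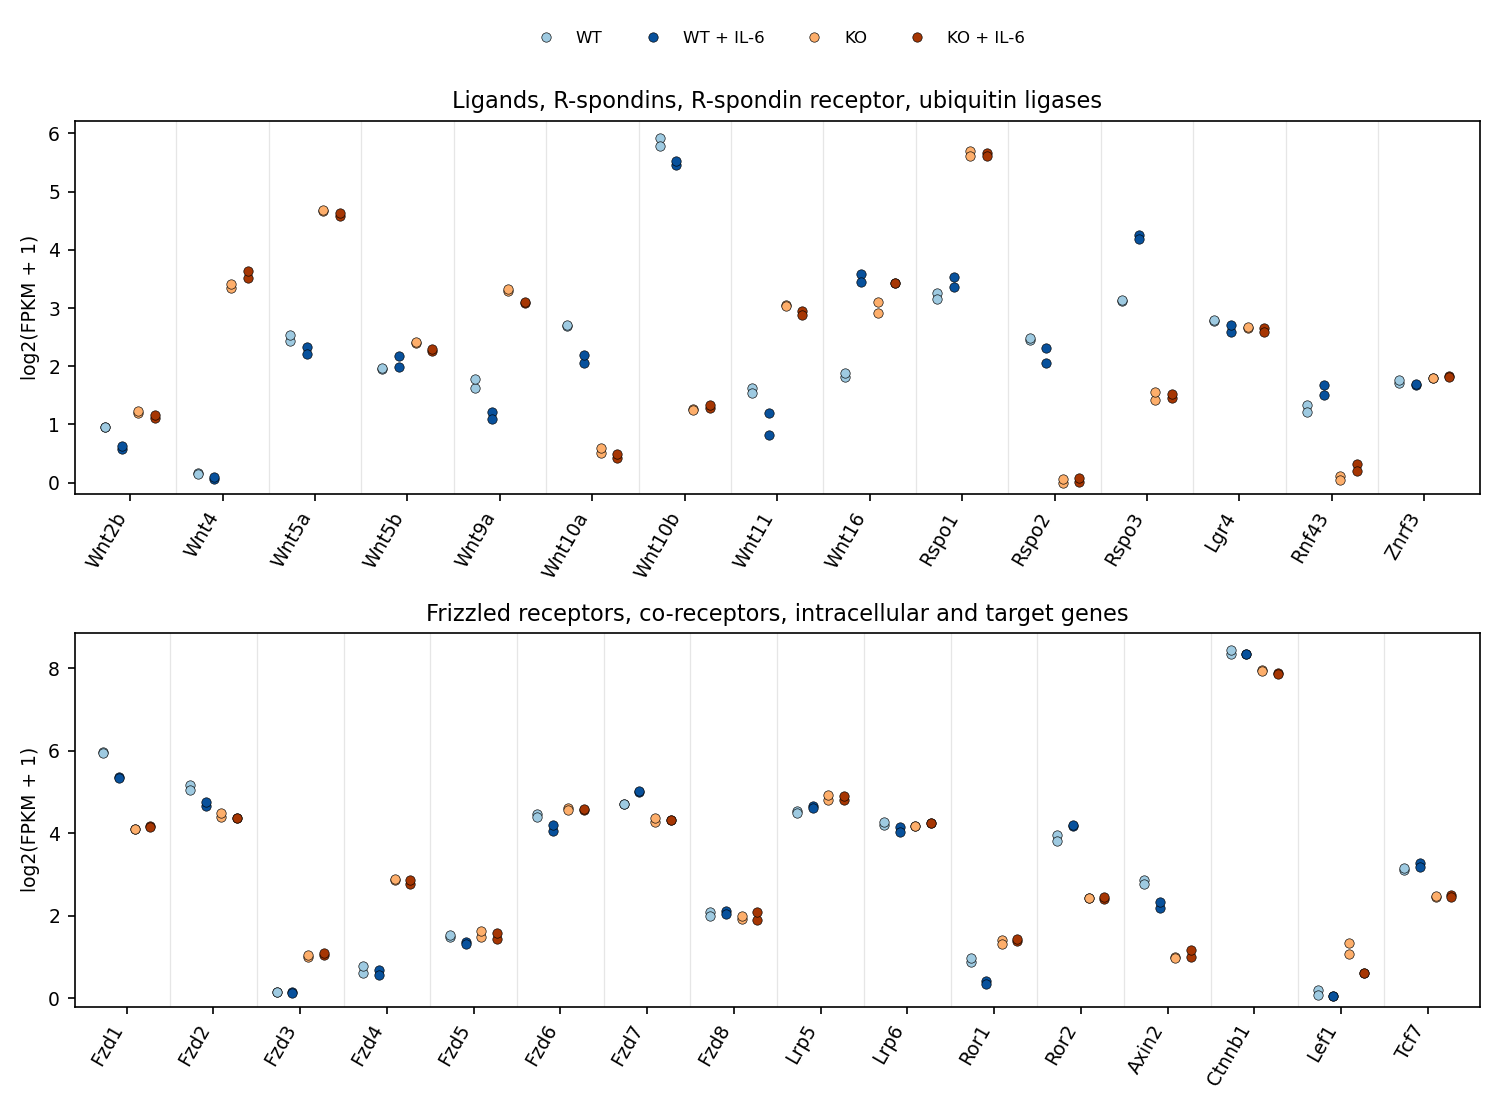
Level of each of the 31 tested genes as log2(FPKM + 1) on the y axis, 1 point per library, coloured by group (WT, WT with IL-6, KO, KO with IL-6; 2 libraries each). Wnt10b, Rspo1, Wnt5a, Wnt4 and Fzd4 stand far apart between the genotypes, and Wnt16 and Rspo3 are the genes whose WT points move most with IL-6.

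The ligands differed between the genotypes mainly in which of them was expressed. The summed level of the 19 ligand genes was 81.2 and 75.9 FPKM in WT without and 67.9 and 69.5 with IL-6. KO reached 64.4 and 66.5 without and 65.0 and 67.3 with IL-6. Wnt10b made up 73.4 and 71.0% of that sum in untreated WT and 63.0 and 65.2% in WT with IL-6. In KO the largest share was that of Wnt5a, with 37.9 and 37.1% without and 35.2 and 35.6% with IL-6, followed by Wnt4, Wnt9a, Wnt16 and Wnt11 in varying order.

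**Figure D2:**
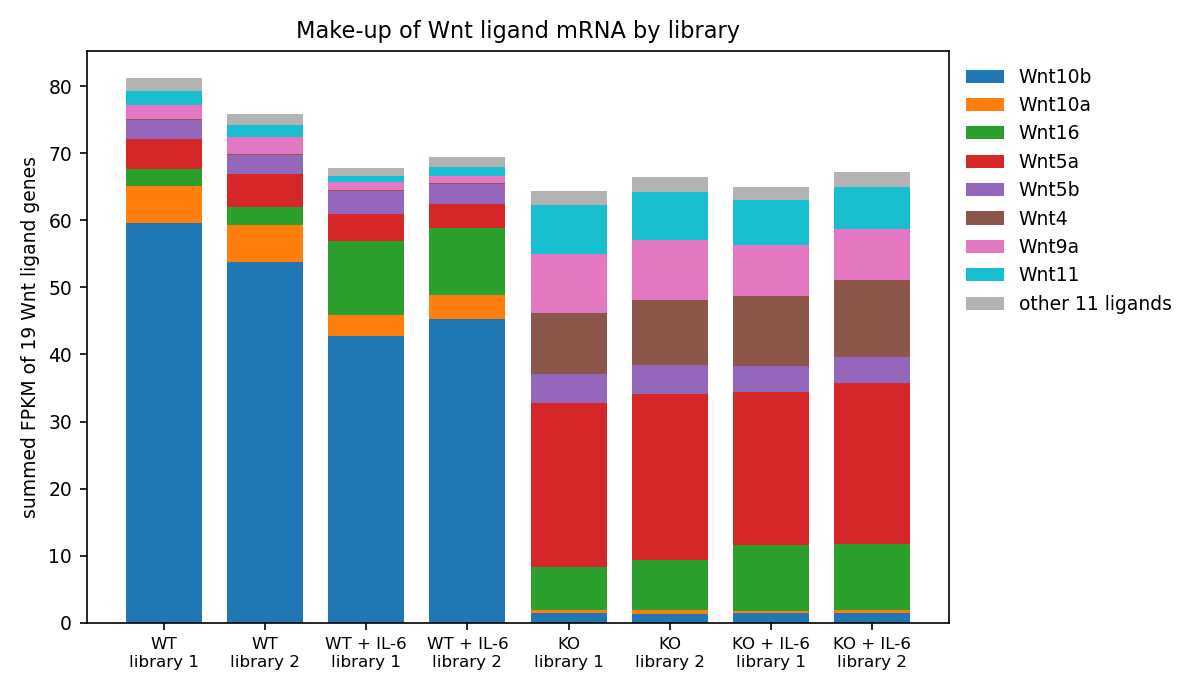
Summed FPKM of the 19 Wnt ligand genes (y axis) in each of the 8 libraries, stacked by gene, with the 11 lowest ligands pooled in grey. Wnt10b fills 63.0 to 73.4% of the bar in the 4 WT libraries, while Wnt5a is the largest of several bands in the 4 KO libraries.

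Wnt10b, a ligand of the β-catenin branch known for holding back fat-cell formation and favouring bone, was at 59.7 and 53.9 FPKM in WT without IL-6 and 42.7 and 45.3 with it. KO libraries held 1.41 and 1.37 without and 1.44 and 1.52 with IL-6. All WT libraries lay far above all KO libraries, and the IL-6 libraries of WT below the untreated ones. The WT mean was 40.7 times the KO mean without IL-6 (-4.59 ± 0.065, adjusted p = 2.18e-09) and 29.7 times with it (-4.18 ± 0.065, adjusted p = 2.98e-09). The fall with IL-6 in WT was -0.36 ± 0.065 (adjusted p = 0.0113), and it no longer passed without WT library 1 (-0.29, adjusted p = 0.0642) or without WT with IL-6 library 1 (-0.32, adjusted p = 0.0763). Its main transcripts, Wnt10b-201 and Wnt10b-206, held 42.9 and 46.5% of the gene's FPKM in untreated WT and 49.8 and 44.6% in untreated KO, so both were low in KO. The gene lies on chromosome 15 (98770712 to 98778150), 11.7 kb from Wnt1, which stayed at or below 0.182 FPKM in every library.

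Its close relative Wnt10a (chromosome 1, 74791516 to 74804179), known for roles in teeth, hair and skin, followed the same order at a lower level, with 5.48 and 5.52 FPKM in WT without IL-6 and 3.14 and 3.57 with it. KO gave 0.423 and 0.509 without and 0.338 and 0.409 with IL-6. No KO library reached a WT library. The gene was lower in KO by -2.15 ± 0.087, adjusted p = 3.98e-07 without IL-6 and -1.66 ± 0.087, adjusted p = 1.52e-06 with it, and fell with IL-6 in WT (-0.58 ± 0.087, adjusted p = 0.00497). Its neighbour Wnt6, 6.19 kb away, stayed between 0.0852 and 0.395 FPKM and was not tested.

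Wnt16 (chromosome 6, 22288227 to 22298522), a ligand known from bone and joint tissue, was the ligand with the largest IL-6 response. It was at 2.52 and 2.69 FPKM in WT without IL-6 and 11.03 and 9.97 with it. KO libraries showed 6.53 and 7.55 without and 9.78 and 9.83 with IL-6. The untreated WT pair was lowest, untreated KO lay between, and the IL-6 libraries of both genotypes ended close together, with both KO values just under the WT pair. In WT the mean rose 4.03-fold (1.67 ± 0.081, adjusted p = 4.02e-05). In KO it was 1.39 times the untreated mean (0.43 ± 0.081), which did not pass (adjusted p = 0.279), and the changes differed between the genotypes by -1.24 ± 0.11 (adjusted p = 0.00178). Untreated KO was above untreated WT by 1.15 ± 0.081, adjusted p = 8.54e-06, whereas with IL-6 the difference was -0.09 ± 0.081 (adjusted p = 0.359). Wnt16-201 carried 91.1% of the gene's FPKM in untreated WT and 87.8% with IL-6, and 81.8 and 80.1% in KO.

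Wnt5a, the best-known ligand of the branch that works through Ror receptors, was at 4.43 and 4.84 FPKM in WT without IL-6 and 4.01 and 3.64 with it (chromosome 14, 28504750 to 28527448). KO stood at 24.4 and 24.7 without and 22.9 and 23.9 with IL-6. KO and WT libraries did not overlap, and KO was higher by 2.18 ± 0.064, adjusted p = 6.74e-08 without IL-6 and 2.34 ± 0.064, adjusted p = 4.41e-08 with it, 5.3 and 6.12 times on the linear scale. The IL-6 libraries of WT were below the untreated ones, but that difference did not pass (-0.22 ± 0.064, adjusted p = 0.0554). Its relative Wnt5b was at 2.89 and 2.92 FPKM in WT without IL-6 and 3.502 and 2.98 with it. KO cells had 4.29 and 4.35 without and 3.81 and 3.896 with IL-6. Untreated KO exceeded untreated WT (0.45 ± 0.078, adjusted p = 0.00135), and with IL-6 the difference was 0.20 ± 0.078 (adjusted p = 0.053). Wnt5b overlaps Fbxl14 on the opposite strand, which was at 7.66 to 15.6 FPKM, and the counting is not stated to use strand, so the values of Wnt5b are uncertain.

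Wnt4, Wnt9a and Wnt11 were low in WT and higher in KO. Wnt4, known for its role in the development of kidney and ovary, was at 0.117 and 0.103 FPKM in WT without IL-6 and 0.0507 and 0.0684 with it (chromosome 4, 137277489 to 137299726). KO libraries held 9.18 and 9.63 without and 10.5 and 11.5 with IL-6. The WT values stand for about 7.99 to 18.7 fragments per library and the KO values for 1340 to 2180, and the genotypes differed by 3.23 ± 0.077, adjusted p = 2.42e-08 without IL-6 and 3.50 ± 0.077, adjusted p = 1.49e-08 with it. On the linear scale the untreated KO mean was 85.5 times that of WT. Wnt9a, a ligand known from joints and cartilage, was at 2.09 and 2.45 FPKM in WT without IL-6 and 1.33 and 1.13 with it. KO gave 8.78 and 8.98 without and 7.52 and 7.57 with IL-6. Every KO library lay above every WT library, and in WT the IL-6 libraries lay below the untreated ones. Wnt9a was above WT in KO by 1.60 ± 0.081, adjusted p = 1.39e-06 without and 1.94 ± 0.081, adjusted p = 4.58e-07 with IL-6, and fell with IL-6 in WT (-0.55 ± 0.081, adjusted p = 0.00457). In KO its IL-6 difference of -0.21 ± 0.081 did not pass (adjusted p = 0.636). Its neighbour Wnt3a, 16.2 kb away on chromosome 11, gave about 1 fragment in 1 library and was listed at 0 in the other 7.

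Wnt11 (chromosome 7, 98835112 to 98855195), a ligand of the polarity branch, was at 2.09 and 1.904 FPKM in WT without IL-6 and 0.769 and 1.29 with it. KO libraries showed 7.27 and 7.19 without and 6.72 and 6.39 with IL-6. KO was higher by 1.46 ± 0.12, adjusted p = 2.02e-05 without IL-6 and 1.91 ± 0.12, adjusted p = 4.22e-06 with it, with no overlap of the genotypes. In WT it fell with IL-6 (-0.57 ± 0.12, adjusted p = 0.0193), but the pair with IL-6 is wide, and the fall did not pass without WT library 1 (-0.53, adjusted p = 0.0915) or WT library 2 (-0.62, adjusted p = 0.0653). The gene has the 2 starts printed above. Wnt11-202, from the first start and annotated as a target of nonsense-mediated decay, stood at 0.714 ± 0.0297 FPKM (SD, n = 2) in WT and 2.48 ± 0.251 in KO, both untreated. Wnt11-205, the coding transcript of the later start, had 0.525 ± 0.1 FPKM there and 3.17 ± 0.00266 in KO, so transcripts of both starts were higher in KO.

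Wnt2b, a β-catenin-branch ligand, stayed low, with 0.934 and 0.946 FPKM in WT without IL-6 and 0.486 and 0.541 with it. KO stood at 1.29 and 1.35 without and 1.16 and 1.24 with IL-6. The untreated WT and KO pairs did not overlap, and both were above WT with IL-6. It fell with IL-6 in WT (-0.36 ± 0.084, adjusted p = 0.0287) and was higher in KO by 0.26 ± 0.084, adjusted p = 0.0256 without and 0.54 ± 0.084, adjusted p = 0.000697 with IL-6. The first of these calls was lost on leaving out any 1 of the 4 WT libraries (adjusted p = 0.0895 without WT library 1, 0.103 without WT library 2, 0.11 without WT with IL-6 library 1 and 0.0787 without library 2). The second was lost on leaving out any 1 of the 4 untreated libraries (adjusted p = 0.075 and 0.0678 without WT library 1 and 2, 0.0614 and 0.0901 without KO library 1 and 2).

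The other 10 ligands stayed under 1 FPKM in every library and were not tested: Wnt1, Wnt2, Wnt3, Wnt3a, Wnt6, Wnt7a, Wnt7b, Wnt8a, Wnt8b and Wnt9b. Wnt9b was listed at 0 in all 8 libraries. Wnt2 was at 0.131 and 0.111 FPKM in WT without IL-6 and 0.1101 and 0.0721 with it. KO cells had 0.544 and 0.421 without and 0.396 and 0.462 with IL-6. That is about 5.95 to 10.8 fragments in WT and 33.0 to 44.9 in KO. In a fit without the filter Wnt2 was higher in KO by 0.40 (adjusted p = 0.00148) without IL-6 and 0.39 (adjusted p = 0.00164) with it. In that fit Wnt1 differed between KO and WT with IL-6 by -0.20 (adjusted p = 0.00193). The Wnt1 call rests on about 14.9 and 15.9 fragments in WT with IL-6 and 2.99 and 1.0 in KO with IL-6.

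Among the R-spondins, which amplify Wnt signals, Rspo1 was high in KO and Rspo2 and Rspo3 were high in WT. Rspo1 (chromosome 4, 124986430 to 125009099), known for its role in ovary development, was at 8.59 and 7.88 FPKM in WT without IL-6 and 10.5 and 9.25 with it. KO libraries held 50.8 and 47.8 without and 49.9 and 47.8 with IL-6. Every KO library was above every WT library, by 2.45 ± 0.071, adjusted p = 6.56e-08 without IL-6 and 2.2 ± 0.071, adjusted p = 1.07e-07 with it, and 5.99 and 4.94 times in FPKM. Its coding transcript Rspo1-201 held 84.5 to 89.4% of the gene's FPKM in the 4 groups. Rspo2 (chromosome 15, 43020794 to 43170826), known from limb and lung development, was at 4.49 and 4.59 FPKM in WT without IL-6 and 4.0001 and 3.15 with it. KO gave 0 and 0.0385 without and 0.00856 and 0.0512 with IL-6. The KO values stand for 0 to about 7.02 fragments per library and the WT values for 370 to 582. The differences were -2.44 ± 0.11, adjusted p = 6.11e-07 without IL-6 and -2.15 ± 0.11, adjusted p = 1.15e-06 with it, and no linear fold is given against values this close to 0.

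Rspo3 (chromosome 10, 29452416 to 29535867), an R-spondin known from blood vessels and the placenta, was at 7.65 and 7.77 FPKM in WT without IL-6 and 18.1 and 17.2 with it. KO libraries showed 1.67 and 1.95 without and 1.74 and 1.89 with IL-6. The WT libraries with IL-6 were the highest, the untreated WT pair lay well below them, and the 4 KO libraries were lowest and overlapped one another. In WT the mean rose 2.29-fold (1.10 ± 0.073, adjusted p = 0.000118). In KO the difference was 0.00 ± 0.073 (adjusted p = 1), and the IL-6 changes differed by -1.10 ± 0.1 (adjusted p = 0.00191). KO was lower by -1.63 ± 0.073, adjusted p = 7.03e-07 without and -2.73 ± 0.073, adjusted p = 4.23e-08 with IL-6. Rspo4 did not exceed 0.0736 FPKM, and without the filter it was lower in KO than in WT without IL-6 by -0.07 (adjusted p = 0.0164). That call rests on about 3.94 and 6.9 fragments in untreated WT and 0 and 0.994 in untreated KO. The summed level of the 4 R-spondin genes was 20.8 and 20.3 FPKM in WT without and 32.7 and 29.7 with IL-6. KO reached 52.4 and 49.8 without and 51.7 and 49.7 with IL-6.

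Of the R-spondin receptors, Lgr4 was the one tested, at 5.87 and 5.97 FPKM in WT without IL-6 and 5.02 and 5.56 with it. KO stood at 5.34 and 5.37 without and 5.34 and 4.999 with IL-6. It did not pass in any of the 5 comparisons. Lgr5, a stem-cell marker in gut epithelium, was under the filter at 0.113 and 0.112 FPKM in WT without IL-6 and 0.124 and 0.116 with it. KO cells had 0.845 and 0.821 without and 0.887 and 0.726 with IL-6. That is about 13.8 to 21.6 fragments in WT and 123 to 149 in KO, and without the filter Lgr5 was higher in KO by 0.72 (adjusted p = 0.000139) and 0.69 (adjusted p = 0.00016) without and with IL-6. Lgr6 was at 0.415 and 0.494 FPKM in WT without IL-6 and 0.215 and 0.0383 with it. KO libraries held 0.337 and 0.303 without and 0.606 and 0.668 with IL-6. Its fragment numbers tell a different order from its FPKM, with about 41.4 and 41.4 in WT without and 12.8 and 9 with IL-6. KO gave about 79.4 and 81.0 fragments without and 113 and 124 with IL-6. Without the filter Lgr6 was higher in KO with IL-6 by 0.54 (adjusted p = 0.00285) and was not called without IL-6. FPKM summed over transcripts depends on which transcript, long or short, a fragment was assigned to.

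The ligases that clear Frizzled receptors differed from each other. Rnf43 (chromosome 11, 87662722 to 87735539), also a target gene of the pathway, was at 1.53 and 1.31 FPKM in WT without IL-6 and 1.85 and 2.19 with it. KO gave 0.07799 and 0.0352 without and 0.246 and 0.156 with IL-6. No KO library reached a WT library, and KO was lower by -1.19 ± 0.11, adjusted p = 3.05e-05 without and -1.33 ± 0.11, adjusted p = 1.6e-05 with IL-6. The KO values rest on about 8.83, 4.99, 2.47 and 6.87 fragments, so the order among the KO libraries carries no information at this depth. Znrf3 was at 2.20004 to 2.56 FPKM over the 8 libraries and did not pass in any comparison.

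The Frizzled receptors fell into a group that was lower in KO, a group that was far higher in KO and a group with no called difference between untreated genotypes. Their summed level was 149 and 143 FPKM in WT without and 117 and 119 with IL-6. KO reached 89.9 and 92.4 without and 89.9 and 91.6 with IL-6. Fzd1 (chromosome 5, 4753839 to 4758035) was the highest of them in WT, with 61.8 and 60.8 FPKM in WT without IL-6 and 40.01 and 39.1 with it. KO libraries showed 16.3 and 16.2 without and 17.1 and 16.9 with IL-6. The 3 levels, untreated WT, WT with IL-6 and KO, did not overlap. It fell with IL-6 in WT (-0.62 ± 0.038, adjusted p = 8.39e-05), was lower in KO by -1.85 ± 0.038, adjusted p = 1.17e-08 without and -1.17 ± 0.038, adjusted p = 1.09e-07 with IL-6, and changed differently with IL-6 in the 2 genotypes (0.68 ± 0.054, adjusted p = 0.00103).

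Fzd2 was at 34.8 and 31.8 FPKM in WT without IL-6 and 24.4 and 25.9 with it. KO stood at 19.8 and 21.5 without and 19.7 and 19.8 with IL-6. Fzd2 fell with IL-6 in WT (-0.39 ± 0.062, adjusted p = 0.00632) and was lower in KO by -0.66 ± 0.062, adjusted p = 4.27e-05 without and -0.33 ± 0.062, adjusted p = 0.00182 with IL-6. Fzd7, a receptor known from stem and progenitor cells, went the other way with IL-6 in WT, with 25.1 and 25.2 FPKM in WT without IL-6 and 31.04 and 31.3 with it. KO cells had 18.3 and 19.6 without and 18.9 and 18.999 with IL-6. Its WT values with IL-6 were above all others and its KO values below all others. It rose in WT (0.30 ± 0.045, adjusted p = 0.00473) and was lower in KO by -0.39 ± 0.045, adjusted p = 0.000137 without and -0.69 ± 0.045, adjusted p = 5.11e-06 with IL-6. Fzd6, linked to hair and tissue polarity, was at 21.3 and 19.9 FPKM in WT without IL-6 and 15.7 and 17.5 with it. KO libraries held 23.4 and 22.4 without and 22.7 and 23.2 with IL-6. Fzd6 fell with IL-6 in WT (-0.30 ± 0.061, adjusted p = 0.0185), a call lost without WT library 1 (-0.25, adjusted p = 0.0907) or WT with IL-6 library 1 (-0.22, adjusted p = 0.087), and was higher in KO with IL-6 (0.45 ± 0.061, adjusted p = 0.000348) but not without it (0.15 ± 0.061, adjusted p = 0.0597).

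Fzd4, a receptor of blood-vessel development that also binds the ligand norrin, was at 0.524 and 0.733 FPKM in WT without IL-6 and 0.599 and 0.493 with it. KO gave 6.34 and 6.42 without and 5.81 and 6.32 with IL-6. Fzd3, known from the guidance of growing axons, was at 0.107 and 0.1102 FPKM in WT without IL-6 and 0.107 and 0.103 with it. KO libraries showed 0.998 and 1.08 without and 1.06 and 1.14 with IL-6. For both genes every KO library stood far above every WT library, and the IL-6 libraries overlapped the untreated ones of the same genotype or lay beside them. Fzd4 was higher in KO by 2.18 ± 0.092, adjusted p = 4.95e-07 and 2.19 ± 0.092, adjusted p = 4.61e-07, 10.2 and 11.1 times in FPKM, and Fzd3 by 0.88 ± 0.091, adjusted p = 7.24e-05 and 0.93 ± 0.091, adjusted p = 5.17e-05. Fzd5 (1.504 to 2.09 FPKM) and Fzd8 (2.703 to 3.34 FPKM) did not pass in any comparison. Fzd9 and Fzd10 stayed at or under 0.168 and 0.0525 FPKM, and without the filter Fzd10 differed between KO and WT without IL-6 by -0.06 (adjusted p = 0.0419). That call rests on about 3.94 and 6.89 fragments in untreated WT and 0 and 0 in untreated KO.

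Among the co-receptors, Ror2 was lower and Ror1 and Lrp5 were higher in KO. Lrp5 was at 22.1 and 21.6 FPKM in WT without IL-6 and 24.1 and 23.4 with it. KO stood at 26.9 and 29.5 without and 27.1 and 28.7 with IL-6. Lrp5 was higher in KO by 0.35 ± 0.056, adjusted p = 0.000829 without IL-6 and 0.22 ± 0.056, adjusted p = 0.00816 with it, and the latter did not pass without KO with IL-6 library 2 (0.18, adjusted p = 0.0554). Lrp6 ranged from 15.4 to 18.4 FPKM and did not pass in any comparison. Ror2 (chromosome 13, 53109312 to 53286124), a receptor tyrosine kinase-like protein that binds Wnt5a, was at 14.6 and 12.9 FPKM in WT without IL-6 and 17.01 and 17.4 with it. KO cells had 4.39 and 4.42 without and 4.26 and 4.44 with IL-6. All KO values were below all WT values, by -1.45 ± 0.068, adjusted p = 8.6e-07 without and -1.77 ± 0.068, adjusted p = 2.75e-07 with IL-6. Wnt5a, its ligand, had the opposite order, as given above. The rise of Ror2 with IL-6 in WT (0.30 ± 0.068, adjusted p = 0.0246) did not pass without WT library 2 (0.22, adjusted p = 0.109), WT with IL-6 library 1 (0.32, adjusted p = 0.0881) or WT with IL-6 library 2 (0.29, adjusted p = 0.113).

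Ror1 (chromosome 4, 100095791 to 100444765), the other member of that receptor family, had the reverse pattern at a low level, with 0.8296 and 0.9704 FPKM in WT without IL-6 and 0.328 and 0.264 with it. KO libraries held 1.65 and 1.49 without and 1.599 and 1.71 with IL-6. WT with IL-6 was lowest, untreated WT lay between and the KO groups were highest and overlapped. It fell with IL-6 in WT to 0.329 times the untreated mean (-0.55 ± 0.091, adjusted p = 0.00765), and KO was higher by 0.43 ± 0.091, adjusted p = 0.00353 without and 1.03 ± 0.091, adjusted p = 2.91e-05 with IL-6.

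**Figure D3:**
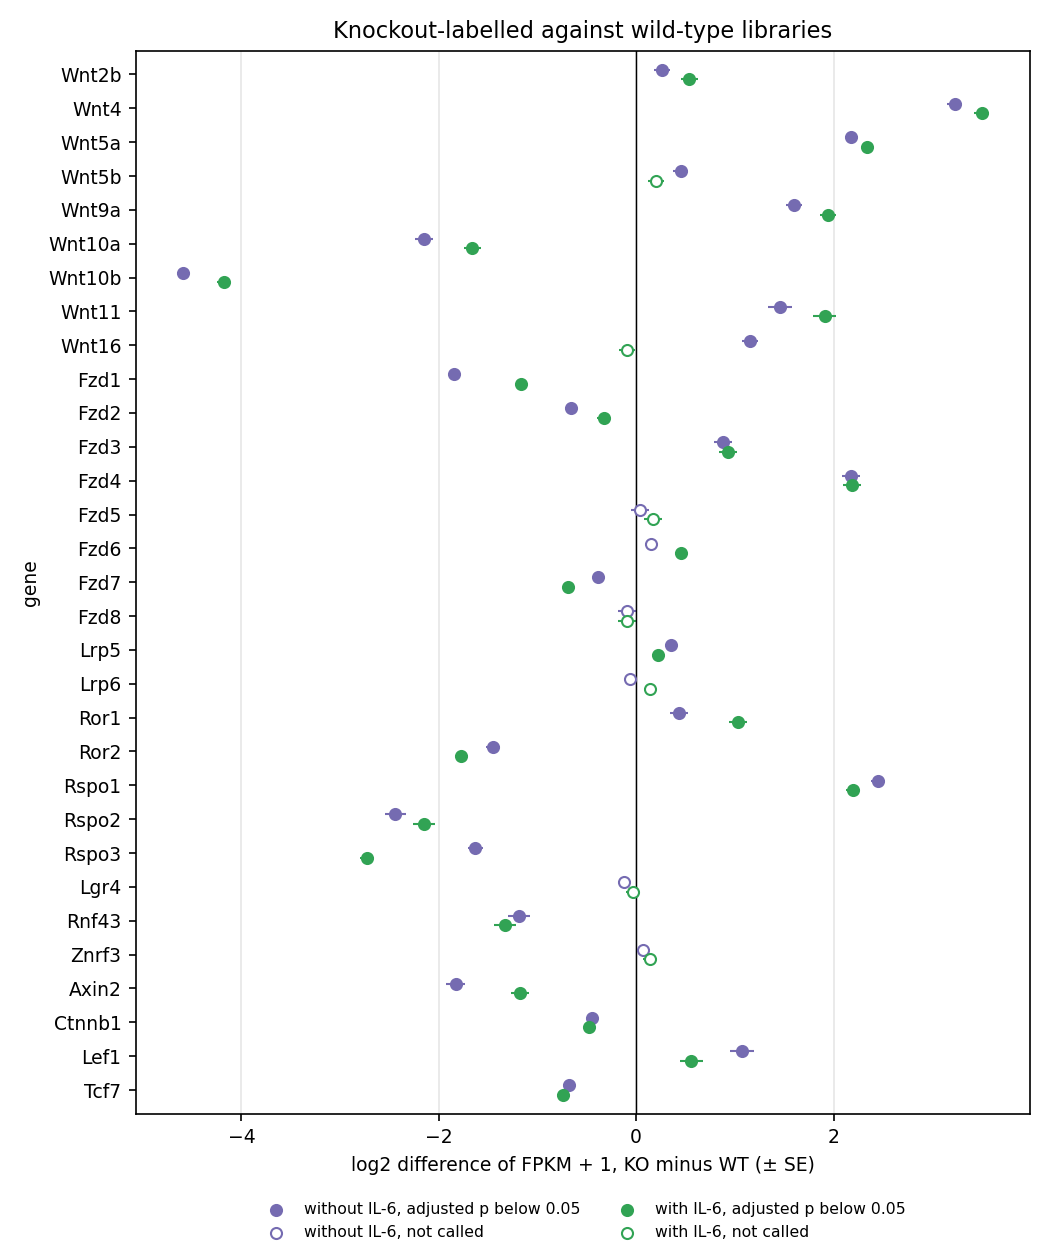
Log2 difference of FPKM + 1 between KO and WT (x axis, KO minus WT, bars ± SE) for each of the 31 tested genes (y axis), without IL-6 in purple and with IL-6 in green, filled where the adjusted p was below 0.05. Wnt10b lies furthest to the left, at -4.59 without IL-6, and Wnt4 furthest to the right, at 3.50 with IL-6.

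Of the 4 intracellular or target genes of the set, Ctnnb1, Tcf7 and Axin2 were lower in KO and Lef1 was higher. Ctnnb1 (β-catenin; chromosome 9, 120929216 to 120960507) was by far the most highly expressed gene of the 46, at 323 and 344 FPKM in WT without IL-6 and 321 and 325 with it. KO gave 246 and 241 without and 234 and 229 with IL-6. It overlaps Ulk4 on the opposite strand (0.925 to 2.25 FPKM), whose level is small beside it. The 4 KO values were below the 4 WT values (-0.45 ± 0.04, adjusted p = 2.99e-05 without and -0.48 ± 0.04, adjusted p = 2.08e-05 with IL-6), and IL-6 made no called difference. Tcf7, a DNA-binding partner of β-catenin, was at 7.68 and 7.95 FPKM in WT without IL-6 and 8.71 and 8.04 with it. KO libraries showed 4.49 and 4.53 without and 4.68 and 4.52 with IL-6. Tcf7 was lower in KO by -0.68 ± 0.062, adjusted p = 3.89e-05 and -0.74 ± 0.062, adjusted p = 2.23e-05. Its transcript Tcf7-201 held 69.1 to 71.3% of the gene's FPKM in each of the 4 groups, so the mix of its transcripts was much the same while its level differed.

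Lef1, the partner typical of hair follicle and early lymphoid cells, was low in WT. It was at 0.145 and 0.0628 FPKM in WT without IL-6 and 0.0429 and 0.0355 with it. KO stood at 1.101 and 1.54 without and 0.543 and 0.5303 with IL-6. KO was higher by 1.07 ± 0.12, adjusted p = 0.000109 without and 0.56 ± 0.12, adjusted p = 0.00334 with IL-6. These FPKM stand for about 2.97, 8.86, 3.98 and 3.98 fragments in the WT libraries and 73.8, 69.9, 69.8 and 72.7 in the KO libraries. The fragment number in KO thus hardly moved with IL-6, whereas the summed FPKM went from 1.101 and 1.54 to 0.543 and 0.5303. In untreated KO, 52.9% of the FPKM sat in Lef1-208, a retained-intron transcript of 345 bases, and in KO with IL-6 2.18% did. A fragment assigned to so short a transcript adds more FPKM than one assigned to a long transcript.

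Axin2 (chromosome 11, 108920349 to 108950783), a scaffold of the β-catenin destruction complex and a widely used readout of the pathway, was at 6.301 and 5.78 FPKM in WT without IL-6 and 3.59 and 4.02 with it. KO cells had 0.995 and 0.966 without and 1.01 and 1.25 with IL-6. Untreated WT was highest, WT with IL-6 lay between and the 4 KO libraries were lowest, with no overlap between these 3 sets. The untreated WT mean was 6.16 times the KO mean (-1.83 ± 0.092, adjusted p = 1.29e-06). Under IL-6 the ratio was 3.37 (-1.18 ± 0.092, adjusted p = 1.46e-05). With IL-6 it fell in WT (-0.55 ± 0.092, adjusted p = 0.00775), and this did not pass without WT library 1 (-0.50, adjusted p = 0.0501) or WT with IL-6 library 1 (-0.49, adjusted p = 0.0515). In KO the difference was 0.10 ± 0.092 (adjusted p = 0.864).

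**Figure D4:**
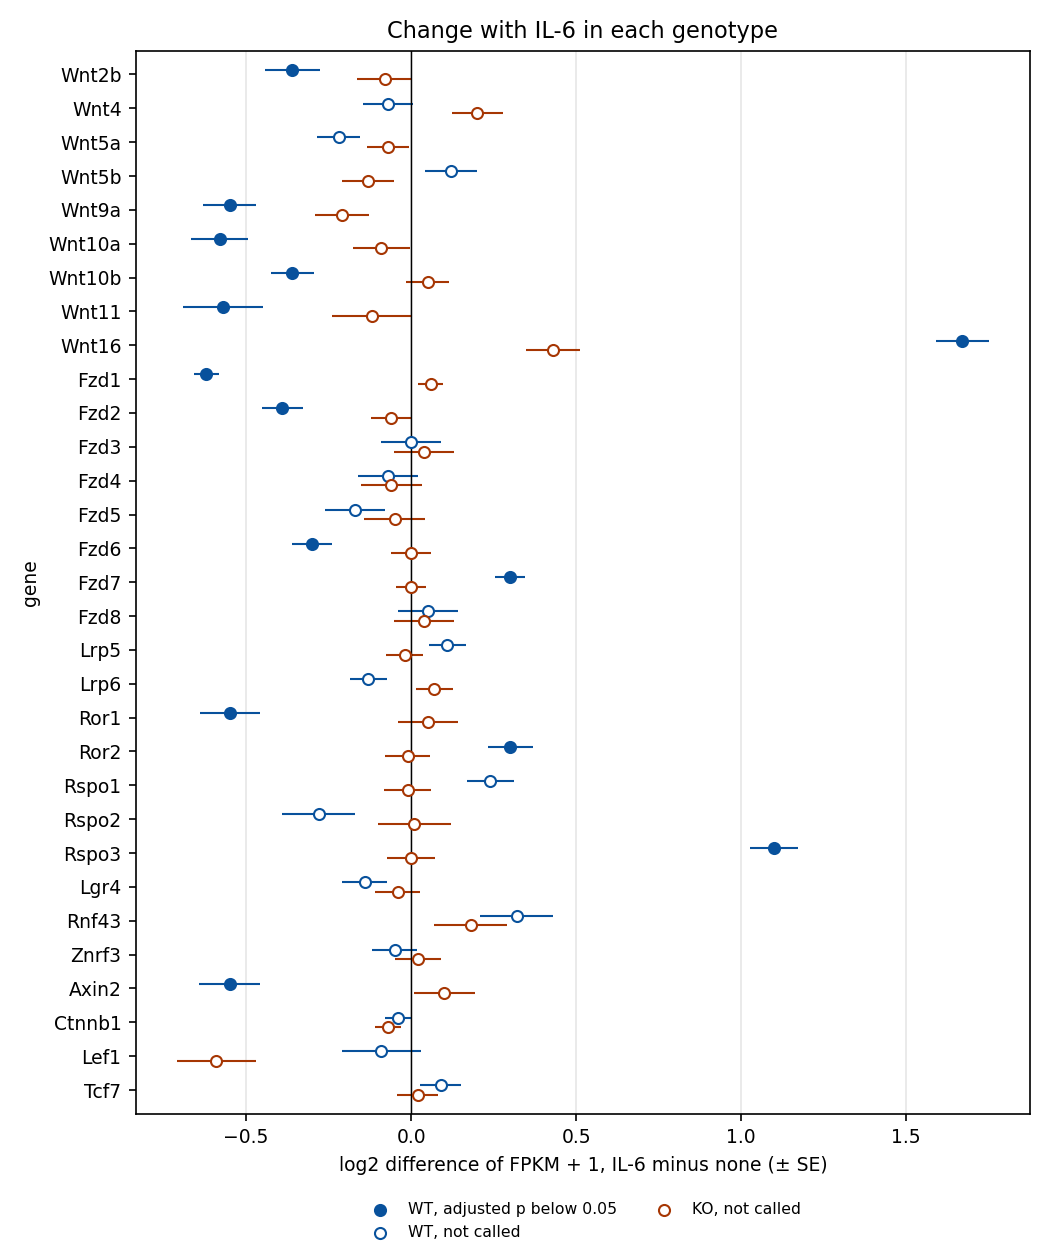
Log2 difference of FPKM + 1 between IL-6 and none (x axis, bars ± SE) for each of the 31 tested genes (y axis), in WT in blue and in KO in brown, filled where the adjusted p was below 0.05. The filled points are all WT, from -0.62 for Fzd1 to 1.67 for Wnt16, and the widest KO point is Lef1 at -0.59, which did not pass.

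The rest of the pathway was described with 78 other genes, of which 64 were tested. Some of the 64 reached 1 FPKM in 1 genotype only, such as Dkk3, Nkd2 and Notum in WT and Gpc3 and Daam2 in KO. They passed the filter through the genotype in which they are high, so the counts that follow describe the 64 and are not evidence on the 78. With IL-6 in WT, 24 of the 64 changed (9 up, 15 down), beside 15.7% of all tested genes (8.3% up, 7.41% down), with a median of -0.06 beside 0.00 for all tested genes. With IL-6 in KO limma called 0, beside 0.0219% of all tested genes. At an unadjusted p below 0.05 there were 3 (Apcdd1, Bcl9 and Ccnd1), again without a share of all tested genes to set beside them. Between the genotypes 52 of the 64 differed without IL-6 (22 higher in KO, 30 lower) and 52 with it (23 higher, 29 lower), or 81.2% in both, beside 71.0% and 71.7% of all tested genes. The IL-6 changes differed for 10 (7 up, 3 down), beside 6.06% of all tested genes. On leaving out any 1 of the 8 libraries the first of these counts (24) and the last (10) were lower. The counts over all tested genes were lower in these fits too. Per set, and beside the 15.7% of all tested genes, IL-6 in WT changed 5 of 6 tested secreted antagonists (1 up, 4 down), 6 of 7 feedback and target genes (1 up, 5 down), 3 of 6 other receptors (1 up, 2 down), 5 of 12 nuclear factors (2 up, 3 down), 2 of 17 genes of Dishevelled and the destruction complex (both up), 2 of 14 polarity genes (both up) and 1 of 2 secretion genes (down). The antagonists as listed include Kremen1, a membrane receptor, and the polarity genes as listed include the calcium-regulated factor Nfatc1.

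Feedback and target genes report on β-catenin activity in many tissues. Without IL-6, 6 of the 7 tested were lower in KO and none higher. Over all tested genes 34.5% were lower and 36.4% higher. Of the 7, Nkd2 and Notum reached 1 FPKM in WT only and passed the filter through it. The count therefore describes the 7 and is not evidence on the set. Genes described above are not counted in the 7, and they went both ways in untreated KO. Axin2 (-1.83) and Rnf43 (-1.19) were lower, whereas Lef1 (1.07) and, in the fit without the filter, Lgr5 (0.72) were higher. The activity of β-catenin itself was not tested. Nkd2, an inhibitor of Dishevelled, was at 29.7 and 29.8 FPKM in WT without IL-6 and 19.4 and 17.9 with it. KO libraries held 0.355 and 0.171 without and 0.384 and 0.3503 with IL-6. The genotypes differed by -4.61 ± 0.086, adjusted p = 7.12e-09 without and -3.84 ± 0.086, adjusted p = 1.65e-08 with IL-6. Notum, a secreted enzyme that removes the lipid of Wnt ligands, was at 7.02 and 6.16 FPKM in WT without IL-6 and 5.398 and 5.52 with it. KO gave 0.602 and 0.484 without and 0.476 and 0.374 with IL-6. The genotypes differed by -2.30 ± 0.091, adjusted p = 3.5e-07 without and -2.18 ± 0.091, adjusted p = 4.43e-07 with IL-6. For these 2 genes no KO library came near a WT library. Apcdd1, a membrane inhibitor, was at 15.7 and 15.97 FPKM in WT without IL-6 and 8.84 and 8.17 with it. KO libraries showed 3.64 and 3.48 without and 2.62 and 3.14 with IL-6. The genotypes differed by -1.89 ± 0.08, adjusted p = 4.96e-07 without and -1.29 ± 0.08, adjusted p = 3.75e-06 with IL-6. Cd44, a cell-surface hyaluronan receptor, was at 80.6 and 81.3 FPKM in WT without IL-6 and 66.98 and 66.1 with it. KO stood at 16.1 and 15.01 without and 14.9 and 15.5 with IL-6. The genotypes differed by -2.31 ± 0.045, adjusted p = 9.67e-09 without and -2.06 ± 0.045, adjusted p = 1.55e-08 with IL-6. Like Axin2, both held 3 levels that did not overlap, untreated WT, WT with IL-6 and KO.

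Ccnd1 (cyclin D1, which drives entry into the cell cycle) was at 19.2 and 18.4 FPKM in WT without IL-6 and 6.699 and 7.47 with it. KO cells had 3.77 and 3.78 without and 3.04 and 2.93 with IL-6. Ccnd1 fell with IL-6 in WT (-1.30 ± 0.067, adjusted p = 4.25e-05). In KO its IL-6 difference was -0.26 ± 0.067 (adjusted p = 0.415), and the IL-6 changes differed (1.04 ± 0.095, adjusted p = 0.00174). Myc, a growth regulator, was the gene of this set that rose with IL-6 in WT. It was at 25.4 and 27.4 FPKM in WT without IL-6 and 34.3 and 31.9 with it. KO libraries held 26.05 and 25.9 without and 27.04 and 28.99 with IL-6. The rise was 0.31 ± 0.058, adjusted p = 0.0117, and the level did not differ between the untreated genotypes beyond the threshold (-0.02 ± 0.058, adjusted p = 0.758). Without WT library 1 the rise of Myc was 0.26 and without WT with IL-6 library 1 it was 0.27, and neither passed. Nkd1 was at 1.52 and 2.31 FPKM in WT without IL-6 and 0.48997 and 0.581 with it. KO gave 0.727 and 1.07 without and 0.903 and 0.708 with IL-6. Nkd1 fell with IL-6 in WT (-0.91 ± 0.15, adjusted p = 0.00832), which did not pass without WT with IL-6 library 1 (-0.87). Its call between the untreated genotypes (-0.61 ± 0.15, adjusted p = 0.0086) was lost without WT library 2 (adjusted p = 0.0501) or KO library 1 (adjusted p = 0.0556). Apcdd1, Nkd2 and Cd44 also fell with IL-6 in WT (-0.83 ± 0.08, adjusted p = 0.000674, -0.65 ± 0.086, adjusted p = 0.00284, -0.28 ± 0.045, adjusted p = 0.00713). With a pseudocount of 0.1 the fall of Nkd2 did not pass (-0.67, adjusted p = 0.087). Sp5, Tnfrsf19 and Wif1 did not exceed 0.7799, 0.147 and 0.0591 FPKM, and Dkk1 was listed at 0 in all 8 libraries.

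**Figure D5:**
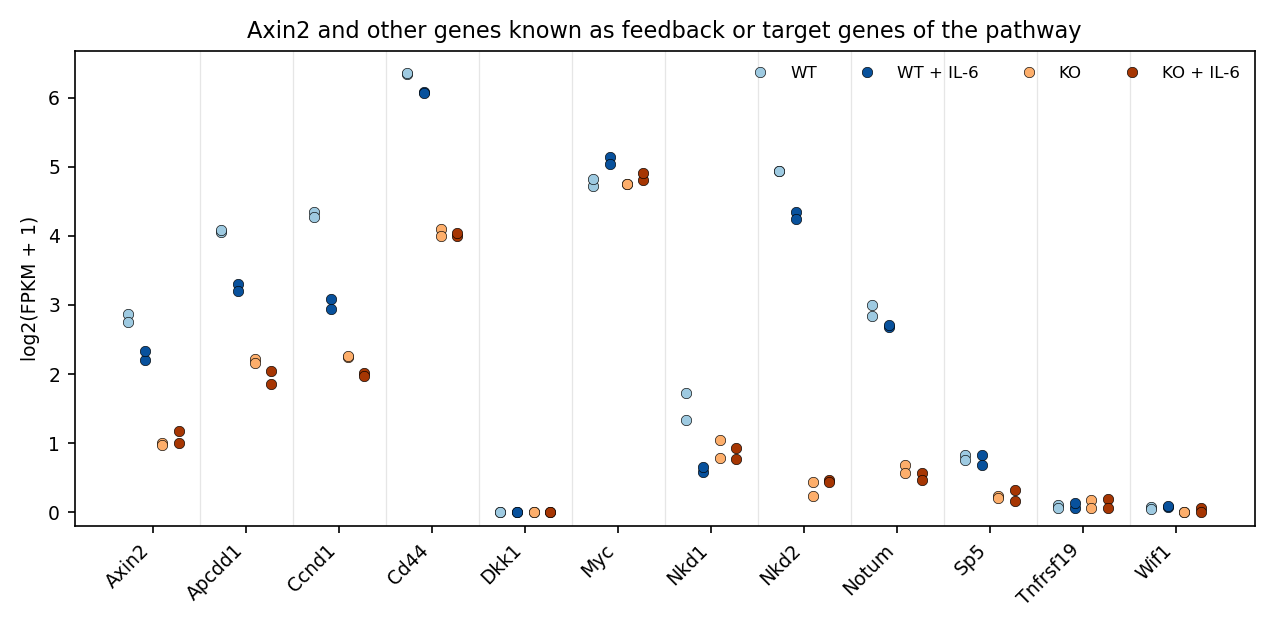
Level as log2(FPKM + 1) (y axis) of Axin2 and the 11 other feedback and target genes, 1 point per library, coloured by group (2 libraries each). Axin2, Apcdd1, Ccnd1, Cd44, Nkd2 and Notum are all lower in the KO libraries than in either WT group, while Myc is at 25.4 FPKM or more in every library.

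The genes listed as secreted antagonists, which bind ligands or co-receptors, moved in both directions. Sfrp1, which binds Wnt ligands, was at 5.09 and 5.21 FPKM in WT without IL-6 and 13.95 and 11.9 with it. KO libraries showed 29.5 and 29.1 without and 32.6 and 33.1 with IL-6. Sfrp1 rose with IL-6 in WT (1.17 ± 0.071, adjusted p = 8.12e-05) and was higher in KO (2.30 ± 0.071, adjusted p = 9.34e-08 without IL-6). Sfrp2 was at 37.6 and 34.4 FPKM in WT without IL-6 and 13.1 and 14.1 with it. KO stood at 15.2 and 17.4 without and 11.4 and 15.4 with IL-6. Sfrp2 fell with IL-6 in WT (-1.34 ± 0.13, adjusted p = 0.000705). The untreated KO libraries lay near the WT level with IL-6 for Sfrp2, and beyond it for Sfrp1. Dkk2, which blocks Lrp5 and Lrp6, was at 7.23 and 8.37 FPKM in WT without IL-6 and 2.797 and 3.05 with it. KO cells had 1.18 and 1.23 without and 1.49 and 1.53 with IL-6. Its IL-6 change differed between the genotypes (1.35 ± 0.12, adjusted p = 0.0017). Dkk3, a Dickkopf family member, was at 44.4 and 42.5 FPKM in WT without IL-6 and 34.96 and 33.4 with it. KO libraries held 0.355 and 0.244 without and 0.337 and 0.382 with IL-6. This was the largest genotype difference downwards among the 64 genes (-5.10 ± 0.068, adjusted p = 1.64e-09 without IL-6). Kremen1, a membrane receptor for Dickkopf proteins listed here, was at 26.3 and 25.3 FPKM in WT without IL-6 and 18.9 and 18.8 with it. KO gave 7.27 and 7.04 without and 7.09 and 6.93 with IL-6. Kremen1 fell with IL-6 in WT (-0.43 ± 0.048, adjusted p = 0.00133).

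Of the remaining genes named, Gpc3 and Daam2 were far higher in KO. The glypican Gpc3, a cell-surface proteoglycan that binds Wnt proteins, was at 0.145 and 0.0905 FPKM in WT without IL-6 and 0.0374 and 0.0735 with it. KO libraries showed 22.5 and 23.5 without and 23.3 and 23.3 with IL-6. Gpc3 differed between the untreated genotypes by 4.42 ± 0.066, adjusted p = 2.58e-09. Daam2, a formin that binds Dishevelled, was at 0.312 and 0.2601 FPKM in WT without IL-6 and 0.241 and 0.3397 with it. KO stood at 30.02 and 28.4 without and 27.7 and 29.4 with IL-6. Daam2 differed between the untreated genotypes by 4.55 ± 0.072, adjusted p = 3.21e-09. Nfatc1, a calcium-regulated transcription factor, was lower in KO, at 21.95 and 22.1 FPKM in WT without IL-6 and 28.5 and 28.999 with it. KO cells had 2.83 and 3.099 without and 2.85 and 3.04 with IL-6. Nfatc1 differed between the untreated genotypes by -2.54 ± 0.058, adjusted p = 2.04e-08. Reck, which with Adgra2 makes a receptor for the ligand Wnt7a, was at 7.09 and 7.34 FPKM in WT without IL-6 and 3.69 and 3.63 with it. KO libraries held 1.89 and 2.25 without and 2.27 and 1.87 with IL-6. Reck fell with IL-6 in WT (-0.82 ± 0.093, adjusted p = 0.00141). Adgra2 was at 53.2 and 48.4 FPKM in WT without IL-6 and 57.5 and 56.9 with it. KO gave 19.7 and 19.5 without and 20.4 and 22.9 with IL-6. It did not change with IL-6 in WT beyond the threshold (0.17 ± 0.065, adjusted p = 0.135). Bcl9, a β-catenin co-factor, was at 10.9 and 11.4 FPKM in WT without IL-6 and 8.38 and 8.14 with it. KO libraries showed 14.9 and 17.1 without and 13.7 and 13.5 with IL-6. Bcl9 fell with IL-6 in WT (-0.39 ± 0.069, adjusted p = 0.0103), a call lost without WT library 2 (-0.36) or WT with IL-6 library 2 (-0.37).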

How the data were processed

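An RNeasy kit served for extraction and a TruSeq stranded mRNA kit for the libraries, per the labels' protocols. The deposited unit is FPKM for each transcript. The submitters' processing notes name HISAT2, Cufflinks 2.2.1 and the build GRCm38.p6. The annotation release and the use of strand in counting are not given in the sources used here. Each file held 142869 transcripts, of which 97.11% had a name in GENCODE M21, and FPKM was summed here to 55358 genes by the name before the final hyphen and number. Depth and fragment length were fitted to low values, of which 91.4 to 95.0% (445 to 536 values per library) then lay within 0.1 of a whole number of fragments. Fragment numbers given in the text are estimates from that fit, and they cover counting error only. The libraries were compared pairwise and none were identical.

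Tests used limma 3.58.1 in R 4.3.3. All 8 libraries entered a single fit of log2(FPKM + 1) with 1 mean for each group, which leaves 4 residual degrees of freedom, and variances were moderated with a trend on intensity. Benjamini-Hochberg adjustment ran over the 13693 genes that reached 1 FPKM in 2 or more libraries. A gene was called at an adjusted p below 0.05. Python 3.11.15 with pandas 2.3.3 and numpy 2.4.6 handled the tables, and matplotlib 3.10.9 the figures.

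The rule that lists the 46 genes by name uses no measured value, but that rule, the lists of other pathway genes and markers, and the tests were chosen with earlier results of these data known. Every gene of the set is accounted for. Of the other pathway genes, the text names the 6 with the smallest p in each comparison and every feedback and target gene. Alternatives were quantile normalization, equal total FPKM, median-ratio scaling over genes of at least 5 FPKM, a pseudocount of 0.1, no filter, no intensity trend, the replicate number as a block, fits restricted to the groups compared, and each library omitted.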

Additional observations from a re-analysis of the deposited data

Results flagged for a closer look

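For 7 of the 31 tested genes the IL-6 change differed between KO and WT by a direct test of the difference (limma, Benjamini-Hochberg adjustment over all tested genes). Values are the change in KO minus the change in WT, on the log2 scale of FPKM + 1. For the same fold, a low gene moves less on this scale than a high gene. Some of the 7 were low in KO, such as Axin2 (0.981 FPKM in untreated KO and 6.04 in untreated WT) and Wnt10b (1.39 and 56.8). The part of these differences that comes from the scale is not given here. In all 7 genes the change passed in WT and did not pass in KO. With IL-6 in KO 3 of all 13693 tested genes passed, so not passing there does not set the 7 apart.

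For Wnt16 the difference was -1.24 ± 0.11 (adjusted p = 0.00178), from a rise of 1.67 in WT and 0.43 in KO. For Rspo3 it was -1.10 ± 0.10 (adjusted p = 0.00191), from a rise of 1.10 in WT and 0.00 in KO. For Fzd1 it was 0.68 ± 0.054 (adjusted p = 0.00103), from -0.62 in WT and 0.06 in KO. These 3 genes passed under every alternative tried for them, with adjusted p up to 0.0137 (Wnt16), 0.0136 (Rspo3) and 0.00924 (Fzd1).

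The other 4 were less stable. Axin2 differed by 0.65 ± 0.13 (adjusted p = 0.0317). It passed without KO with IL-6 library 1 and did not pass when any of the other 7 libraries was left out, with adjusted p of 0.0918 and 0.0672 without WT library 1 and 2, 0.0997 and 0.06 without WT with IL-6 library 1 and 2, 0.0848 and 0.0957 without KO library 1 and 2, and 0.094 without KO with IL-6 library 2. Ror1 differed by 0.60 ± 0.13 (adjusted p = 0.0408), Wnt10b by 0.41 ± 0.092 (adjusted p = 0.0467) and Fzd7 by -0.30 ± 0.063 (adjusted p = 0.0375). None of these 3 passed when any 1 of the 8 libraries was left out, with adjusted p from 0.0688 to 0.122 for Ror1, 0.0548 to 0.146 for Wnt10b and 0.0502 to 0.115 for Fzd7.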

How the results depend on the processing

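Between the genotypes, 24 of 25 calls without IL-6 and 23 of 24 with it held under every alternative tried. The exceptions were Wnt2b and Lrp5. Of the 31, 9 reached 1 FPKM in 1 genotype only and passed the filter through it. Over all tested genes, a fit of only the groups compared gave 9453 calls without IL-6 and 9719 with it, in place of 9716 and 9813. The share of all calls that held under every alternative is not given for any comparison. The counts of held calls therefore have no background and describe the 31 only. Genes without a call in the fit reported also passed under some of the alternatives. These were Fzd6 and Lgr4 between the genotypes without IL-6, and Lrp6, Wnt5b and Znrf3 with it. With IL-6 in WT, 7 of 14 calls held throughout: those of Wnt16, Rspo3, Fzd1, Fzd2, Fzd7, Ror1 and Wnt10a. Rnf43, Rspo1 and Wnt5a gained a call there under some of the alternatives. A fit of only the groups compared gave 9 calls in place of 14, and 938 in place of 2150 over all tested genes. Leaving out 1 library gave as many calls or fewer among the 31, and fewer over all tested genes. The lowest counts among the 31 came without WT library 1 and without WT with IL-6 library 1. Wnt9a did not pass in the fit of only the groups compared (adjusted p = 0.052). With IL-6 in KO no setting gave a call among the 31 genes. The 7 differences between IL-6 changes became 3 without the filter and 3 with the replicate block. Over all genes in those fits 521 and 564 were called, in place of 830. Without any 1 library the calls became fewer, both among the 31 and over all tested genes. Fzd2, Wnt10a and Wnt11 gained this call under some of the alternatives. That comparison cannot be fitted on 2 groups. For the other pathway genes, the 24 calls with IL-6 in WT became 15 to 22 without 1 library, 15 coming without either WT with IL-6 library. Their 10 differences between IL-6 changes became 4 without the filter and 3 to 6 without 1 library. Prickle3, not called between the untreated genotypes (0.13), turned to -0.08 without WT library 2 (adjusted p = 0.435) and passed at 0.33 without WT library 1. The cause of these changes was not tested.

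Scaling to equal totals moved the share of higher calls with IL-6 in WT from 52.8 to 34.8% over all tested genes, and that of the difference between IL-6 changes from 41.9 to 55.1%. Libraries with the same number did not deviate together (correlation of deviations from the group means of -0.097 to 0.055 over pairs of groups). With 2 libraries a group, this cannot show whether the numbers stand for a shared culture or batch. With IL-6 in WT, the replicate block ended the calls of Wnt2b, Csnk1a1, Csnk1d, Tle1 and Tle3 and added that of Rspo1. Between the untreated genotypes it added Tcf7l2. Of the differences between IL-6 changes it ended those of Axin2, Fzd7, Ror1, Wnt10b, Apcdd1, Nfatc1 and Tle2 and added that of Tcf7l2. With 2 libraries a group, and 1 left in a group when a library was left out, the spread is that of the pooled groups. Genes with few fragments, such as Rspo2, Rnf43 and Lef1, are limited by depth.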
